A study of Mus musculus with 36 samples.

Results

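The genes described here are 10 genes of iron handling, namely Hamp, Hamp2, Trf, Tfrc, Tfr2, Fth1, Ftl1, Slc40a1, Hpx and Cp. They were taken by symbol from the 54232 genes of the count table as a group named with earlier results of these data known, and all 10 passed the filter on low counts and were tested. Iron circulates bound to transferrin and enters cells through transferrin receptors. Cells store it in ferritin and release it through ferroportin, which the liver hormone hepcidin removes from the cell surface. Hepatocytes are the main source of hepcidin, transferrin, haemopexin and ceruloplasmin, and bone morphogenetic protein (BMP) signals through Smad proteins, together with interleukin-6 signals through Stat3, are known to set hepcidin transcription.

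All mice were female, carried floxed Nampt alleles on a C57BL6/BomTac background and ate a purified L-amino acid defined diet, which was given from an age of 10 to 12 weeks and lasted 3 to 5 weeks. Hepatocyte-specific Nampt knockout (HNKO) mice also carried Alb-Cre, which acts in hepatocytes, so that other liver cells keep the gene for Nampt, an enzyme of NAD salvage. Wild-type (WT) mice were floxed littermates without Cre. Each of 12 mice, 6 per genotype, gave a piece of the median lobe taken after the blood was flushed out and before collagenase (liver, L), washed cells from the other lobes (cell suspension, CS) and cells from the same suspension after 24 h on collagen (primary hepatocytes, PH). The liver library of WT mouse 558, of low depth, was left out, so WT liver has 5 libraries and each other group 6. Because L came from another lobe than CS and PH, sample type and lobe cannot be told apart. The study's hepatocyte culture medium held fetal bovine serum, dexamethasone and insulin. Time in culture and this medium cannot be told apart either.

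The 35 libraries held 8698735 to 20350519 counts. Nampt was lower in HNKO than in WT libraries of all 3 sample types, by 0.99 (L), 1.23 (CS) and 1.35 (PH) on the log2 scale. Values are CPM (counts scaled to a common library total) on library sizes scaled by trimmed means (TMM), fold changes are log2 values ± SE, and adjusted p-values come from edgeR's quasi-likelihood test with Benjamini-Hochberg adjustment over the 14932 genes tested, with a gene called at an adjusted p under 0.05. The summed level of 10 hepatocyte markers, Alb among them, was 158600 to 194700 CPM in WT liver, 94570 to 173800 in HNKO liver, 38130 to 60680 in WT PH and 32150 to 48000 in HNKO PH, and all 10 were called lower in PH than in L in both genotypes. In bulk RNA, fewer cells of a type and less RNA per cell cannot be told apart.

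Of the 10 genes, 4 carry in their messenger RNA an iron-responsive element, a stem-loop to which iron regulatory proteins bind. In the 5′ UTR these proteins block translation, and in the 3′ UTR they protect the message from decay. The elements are printed because they lie on opposite sides of the coding sequence in Tfrc and in Fth1, Ftl1 and Slc40a1 (GRCm38, each read 5′ to 3′ on the gene's strand, with the bulged C and the loop in capitals).
Fth1 5′ UTR, chr19:9982732-9982760, plus strand: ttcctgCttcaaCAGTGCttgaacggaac
Ftl1 5′ UTR, chr7:45459779-45459807, minus strand: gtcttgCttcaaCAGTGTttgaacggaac
Slc40a1 5′ UTR, chr1:45925465-45925493, minus strand: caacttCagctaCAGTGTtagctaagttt
Tfrc 3′ UTR, chr16:32631219-32631247, plus strand: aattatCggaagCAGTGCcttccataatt
Tfrc 3′ UTR, chr16:32631598-32631626, plus strand: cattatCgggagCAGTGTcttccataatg
Tfrc 3′ UTR, chr16:32631663-32631691, plus strand: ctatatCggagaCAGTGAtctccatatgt
Tfrc 3′ UTR, chr16:32631710-32631738, plus strand: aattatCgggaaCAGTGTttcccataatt
The pattern searched, on the message strand only, was a C, 5 bases, CAGTG, a base other than G, and 5 bases that pair with the first 5 (G with U allowed). It was present in the 5′ UTR of 0.105% and in the 3′ UTR of 0.457% of 21901 protein-coding genes. Fth1, Ftl1 and Slc40a1 had 1 element each and Tfrc had 4, and no match was found in the UTRs of the other 6 genes.

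Hamp and Hamp2 are neighbouring copies on chromosome 7 (Hamp, chr7:30942368-30944032; Hamp2, chr7:30922372-30924681, both minus strand, GRCm38). Hamp encodes hepcidin, and the role of Hamp2 in iron regulation is less clear. The 130 bases around and upstream of each RefSeq start (GRCm38.p6, minus strand, 5′ to 3′) are shown because the levels of the copies are set side by side below. For Hamp2 the RefSeq start differs from the start of the gene span given above, so its window lies within that span. Capitals mark a BMP response element (GGCGCC) or its Hamp2 counterpart, followed by a STAT site (TTCNNNGAA).
Hamp, chr7:30944030-30944159: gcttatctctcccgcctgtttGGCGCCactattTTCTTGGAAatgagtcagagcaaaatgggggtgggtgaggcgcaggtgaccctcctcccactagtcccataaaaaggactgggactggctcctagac
Hamp2, chr7:30924182-30924311: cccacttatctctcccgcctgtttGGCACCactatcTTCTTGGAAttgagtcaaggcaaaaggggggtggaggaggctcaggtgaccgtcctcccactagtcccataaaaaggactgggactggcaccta
Of 127 aligned bases, 115 (90.6%) were identical, and of the 12 substitutions only G25A, counted from 1 at the first Hamp base printed, fell within GGCGCC. TTCNNNGAA was intact in both. Searched on both strands, GGCGCC occurs in 11.9% and TTCNNNGAA in 8.3% of 32851 promoter windows of 300 bases, and the motifs do not overlap. Among the 8 genes with a promoter entry, GGCGCC was found also in a Tfrc window, and no other gene held TTCNNNGAA. A match is a run of letters and was not tested as a binding site.

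Per kilobase of annotated exon, mean levels in WT liver ran from Hpx (3058 CPM per kb) and Hamp (2627) through Ftl1 (1526), Hamp2 (1310), Trf (430.2), Fth1 (404), Cp (185), Tfr2 (105) and Slc40a1 (24.8) to Tfrc (2.95). The ranges over the 5 mice overlapped between Hpx and Hamp, between Ftl1 and Hamp2 and between Trf and Fth1, and not between other neighbours in this order. In WT PH the order was Hpx (8451), Fth1 (1345), Ftl1 (1254), Cp (637), Hamp (180.5), Trf (134), Tfr2 (33.0), Hamp2 (20.7), Tfrc (13.0) and Slc40a1 (8.67). This order uses group means, and the place of Hamp above Trf rests on the culture of mouse 544. Hamp was at 336 CPM there and at 13.0 to 27.0 CPM in the other WT cultures, with a median of 25.4 CPM. The length pools the exons of all annotated transcripts and can far exceed that of the first transcript. It was 3469 against 929 bases for Fth1 and 9000 against 3370 for Slc40a1, but 410 for both in Hamp. Both orders and the overlaps between neighbours therefore hold only for this length.

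**Figure D1:**
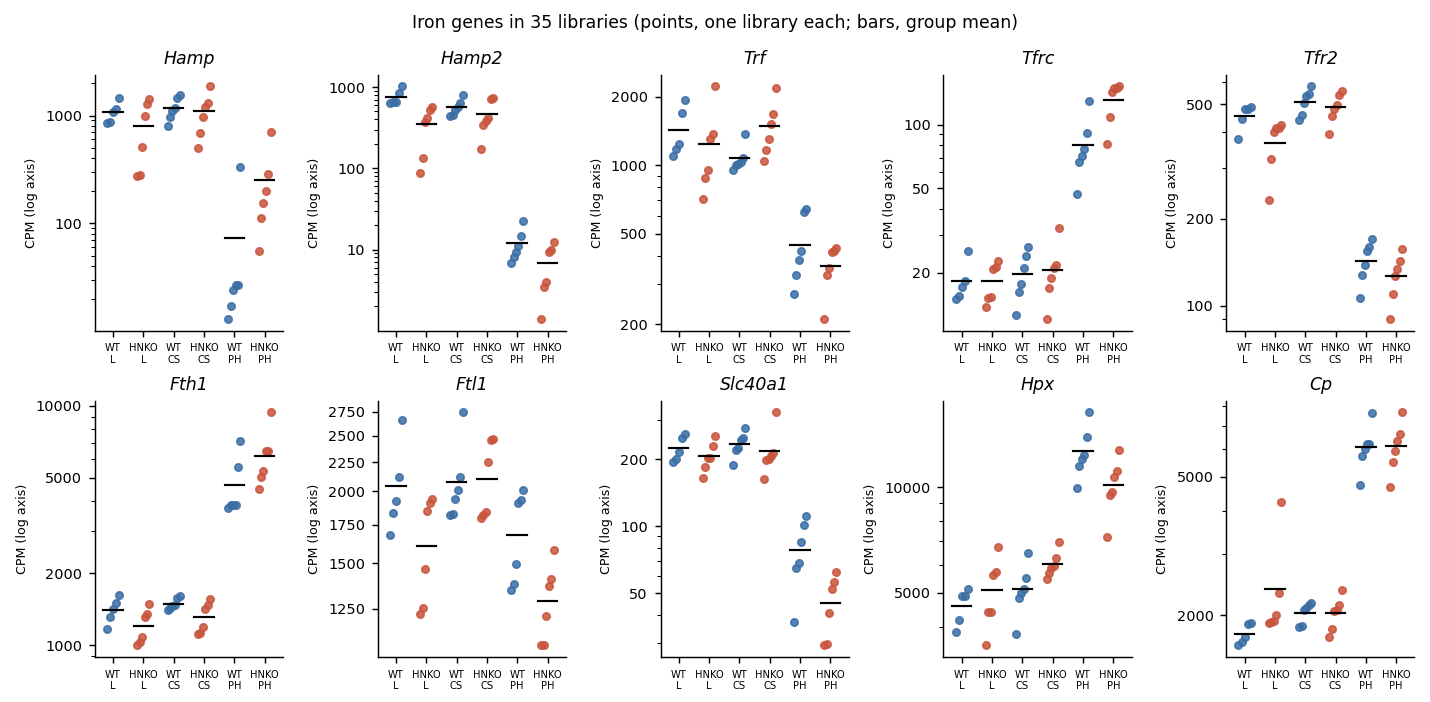
CPM (log axes that do not start at 0) of the 10 genes in the 35 libraries, by genotype and sample type; each point is a library and each bar a group mean. L and CS libraries lie close together for most genes, whereas PH libraries lie apart from them, as for Tfrc (WT liver 15.0 to 25.5 CPM, WT PH 47.3 to 129.6).

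After 24 h in culture, 9 of the 10 genes differed from liver in each genotype. In WT mice Tfrc, Fth1, Hpx and Cp rose and Hamp, Hamp2, Trf, Tfr2 and Slc40a1 fell, that is 4 higher and 5 lower, whereas Ftl1 missed the threshold. The same 9 genes moved the same way in HNKO mice. These counts stand beside 75.7% of all genes called in WT (37.5% higher, 38.2% lower) and 76.2% in HNKO (37.7% higher, 38.5% lower), so most genes differed between PH and liver. The median change of the 10 genes was -0.90 in WT and -0.93 in HNKO, against 0.01 over all genes in each. Against cell suspension, 4 genes were called higher and 5 lower in WT, where 75.1% of all genes were called (38.3% higher, 36.8% lower), and 4 higher and 6 lower in HNKO, where 75.7% were called (38.1% higher, 37.6% lower).

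Hamp was abundant in every liver. It stood at 869, 1446, 861, 1140.5 and 1069 CPM in the WT livers of mice 544, 548, 554, 556 and 564, and at 276 to 1420.4 CPM (median 752) in HNKO livers. The genotypes overlapped, with 3 HNKO livers below every WT liver (-0.44 ± 0.63, adjusted p = 0.755). In CS it was 802 to 1557 CPM (median 1136) in WT and 495 to 1873 CPM (median 1085) in HNKO, with overlapping groups.

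In WT PH, Hamp was at 17.1 (mouse 548), 24.0 (554), 13.0 (556), 27.0 (558) and 26.9 CPM (564), and at 336 CPM in mouse 544. In HNKO PH it was at 153 (540), 199 (542), 113 (546), 707 (552), 54.9 (562) and 285 CPM (566). All 6 HNKO cultures lay above the WT median of 25.4 CPM and above 5 of the 6 WT cultures, the exception being mouse 544. The genotype difference in PH was 1.77 ± 0.63, a 3.4-fold higher level in HNKO, and missed the threshold (adjusted p = 0.0572; exact two-sided permutation test, n = 6 and 6, unadjusted p = 0.0238). DESeq2 called it (1.78, adjusted p = 0.0311). Without mouse 544 the difference was 3.55 (adjusted p = 1.8e-05), without mouse 552 it was 1.14 (adjusted p = 0.228), and it was also called without mouse 546 (1.91) or 562 (1.97).

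Hamp was lower in PH than in L in both genotypes and fell by 3.86 ± 0.69 in WT (14.5-fold, adjusted p = 7.69e-06) and by 1.65 ± 0.62 in HNKO (3.14-fold, adjusted p = 0.0171). WT PH and liver did not overlap, whereas in HNKO they did, since the cultures of mice 552 (707 CPM) and 566 (285 CPM) lay above the lowest HNKO liver (276 CPM). Set beside its own liver, Hamp was lower in PH in 5 of 5 WT mice, by 2.59- to 87.7-fold with a median of 39.7-fold, and in 5 of 6 HNKO mice, with a median of 3.42-fold. In HNKO mouse 552 it was 2.5-fold higher in PH (707 CPM) than in its liver (283 CPM). The WT change was -5.71 without mouse 544. The HNKO change was -2.50 without mouse 552, and its call was lost without mouse 542 (-1.35, adjusted p = 0.0778) or 562 (-1.26, adjusted p = 0.0885). The genotype effect on Hamp in PH minus that in L was 2.21 ± 0.88 (adjusted p = 0.171), and 4.06 without mouse 544 (adjusted p = 0.00166).

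**Figure D2:**
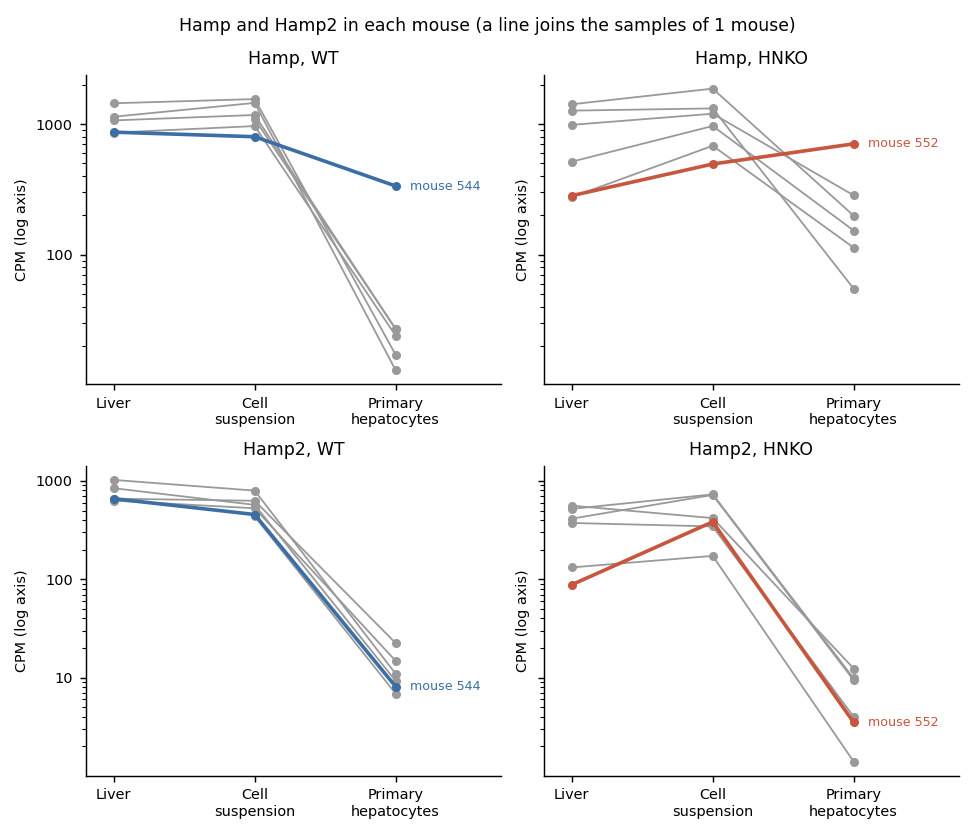
Hamp (top) and Hamp2 (bottom) in CPM (log axes that do not start at 0) for WT (left) and HNKO mice (right); points are libraries and each line joins the samples of 1 mouse, with mice 544 and 552 coloured. Hamp was lower in PH than in L in every mouse with both libraries but 552, which went from 283 to 707 CPM, whereas Hamp2 fell in every such mouse, by at least 25.1-fold.

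Hamp2 was also abundant in liver. It was at 660, 1025, 631, 843 and 661 CPM in the WT livers (mice 544, 548, 554, 556 and 564) and at 88.0 to 561 CPM (median 394) in HNKO livers. All 6 HNKO livers lay below all 5 WT livers, but the difference missed the threshold (-1.13 ± 0.42, adjusted p = 0.149; exact permutation test, unadjusted p = 0.0108). In WT PH it was at 6.88 to 22.5 CPM (median 10.1) and in HNKO PH at 1.40 to 12.4 CPM (median 6.70). From L to PH, Hamp2 fell by 5.99 ± 0.50 in WT (63.5-fold, adjusted p = 1.48e-12) and by 5.69 ± 0.49 in HNKO (51.6-fold, adjusted p = 3.39e-12), with no overlap in either genotype. The HNKO PH level differed from WT by -0.84 ± 0.42 (adjusted p = 0.192), a negative value where that of Hamp was positive.

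Hamp2 supplied 38.2% to 43.2% of the joint Hamp and Hamp2 counts in WT livers and 20.4% to 59.9% in HNKO livers. In PH its share was 20.3% to 45.5% in 5 WT mice and 2.36% in mouse 544, and 0.493% to 18.4% (median 2.65%) in HNKO mice. The 6 HNKO cultures thus had lower shares than those 5 WT cultures, and mouse 544 lay among the HNKO values. The annotated transcripts share 388 of 410 aligned bases (94.6%), and 15.8% of the 51-base windows of Hamp and 27% of those of Hamp2 occur in the other copy, so that reads from these stretches are uncertain between the copies.

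The cultures of mice 544 and 552, the highest for Hamp in their genotype, also stood high in other transcripts. The 10 stellate cell markers summed to 470 and 478 CPM, against 111 to 192.5 in other WT PH and 179 to 386 in other HNKO PH, and the cholangiocyte markers to 219 and 452 CPM, against 25.9 to 48.8 and 73.3 to 365. Hepatocyte markers summed to 38130 and 36980 CPM. The Kupffer cell markers summed to 217 and 78.8 CPM, within the ranges of WT PH (180 to 519) and HNKO PH (63.0 to 365). In CS the stellate cell markers of mouse 544 also summed to 824.5 CPM, against 167 to 329.6 CPM in other WT CS. Nampt matched the label of both cultures (209 and 87.3 CPM), and their mean rank correlations with other PH libraries were 0.9726 and 0.9604. The value of mouse 552 was the lowest in PH (0.97 to 0.9829 in the other cultures). Its CS (0.961) and L libraries (0.9406) were also the lowest of those used in their sample type. Among targets of BMP signalling, Id1 was at 24.3 and 25.3 CPM (1.59 to 3.56 in other WT PH, 7.34 to 13.6 in other HNKO PH), and Socs3, a feedback target of Stat3, at 57.3 and 65.9 CPM (5.35 to 9.98 and 11.2 to 35.6). Id3 (82.4 and 92.4 CPM) and Smad6 (1.79 and 2.67 CPM) were likewise the highest of their genotype, as was Smad7 in mouse 544 only. Id2 (28.9 and 27.5 CPM) and Smad9 (0.79 CPM in each) lay within the range of other cultures. Atoh8 in mouse 544 (1.91 CPM) lay below every other WT PH. Of the interleukin-6 genes, Jak2 (60.6 and 50.4 CPM) was highest in both, whereas Il6ra in mouse 544 (33.9 CPM) was the lowest of WT PH. The part of these transcripts in the Hamp level was not tested.

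Trf encodes transferrin, the plasma carrier of iron. It was at 1093, 1694, 1234, 1179.7 and 1939.7 CPM in the WT livers in the order given above, 708 to 2223 CPM (median 1123) in HNKO livers, 271 to 641 CPM (median 403) in WT PH and 211 to 434 CPM (median 386) in HNKO PH. Every PH library lay below every L and CS library of its genotype. From L to PH it fell by 1.68 ± 0.25 in WT (3.21-fold, adjusted p = 3.33e-07) and by 1.78 ± 0.24 in HNKO (3.43-fold, adjusted p = 7.11e-08). In CS all 6 HNKO libraries (1043 to 2192 CPM) lay above the WT median of 1020.3 CPM, and the difference of 0.46 ± 0.24 missed the threshold (adjusted p = 0.374). The annotation places another model, Gm20425, over 2108 exonic bases of Trf on the same strand, and 79.7% of the 51-base windows of Trf occur in it. Reads there could be given to either model or to neither by the counting. That model held 0 to 1 counts per library, which does not show how many Trf reads were left out.

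Tfrc encodes the transferrin receptor through which most cells take up iron. It was low in the WT livers, at 15.0, 18.3, 25.5, 17.1 and 15.5 CPM, and at 13.7 to 22.8 CPM (median 18.1) in HNKO livers. In WT PH it was 47.3 to 129.6 CPM (median 73.8), with mouse 544 highest, and in HNKO PH 81.0 to 152 CPM (median 146). No PH library overlapped with L or CS in either genotype. The rise in culture was 2.14 ± 0.24 in WT (4.42-fold, adjusted p = 1.04e-09) and 2.84 ± 0.23 in HNKO (7.17-fold, adjusted p = 5.1e-13).

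Tfr2, the other transferrin receptor, made mainly by hepatocytes and part of iron sensing, fell in culture. It was at 481, 446, 480.3, 379 and 491 CPM in the WT livers, 232 to 424 CPM (median 407) in HNKO livers, 107 to 171 CPM (median 147) in WT PH and 89.9 to 157 CPM (median 130.1) in HNKO PH. PH did not overlap with L in either genotype, and the falls were 1.67 ± 0.14 (WT, 3.19-fold, adjusted p = 2.4e-12) and 1.54 ± 0.14 (HNKO, 2.91-fold, adjusted p = 7.7e-12). In all 5 WT and all 6 HNKO mice with both samples, CS was above L. That difference in HNKO was 0.41 ± 0.14 (adjusted p = 0.0739), and with the mouse as a block it was 0.43 and called (adjusted p = 0.00642).

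Fth1, the ferritin heavy chain with ferroxidase activity, was at 1413, 1309, 1615, 1503 and 1164 CPM in the WT livers and at 999.8 to 1480.1 CPM (median 1194) in HNKO livers. In WT PH it was 3743 to 7143 CPM (median 3862), and in HNKO PH 4472 to 9376 CPM (median 5896), with mice 544 and 552 highest. From L to PH it rose by 1.74 ± 0.18 in WT (3.33-fold, adjusted p = 1.87e-10) and by 2.36 ± 0.17 in HNKO (5.13-fold, adjusted p = 4.56e-14), without overlap.

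Ftl1, the ferritin light chain, was at 1835, 2666, 2119, 1925 and 1681 CPM in the WT livers, 1224 to 1943 CPM (median 1658) in HNKO livers, 1347 to 2014 CPM (median 1704) in WT PH and 1081 to 1582 CPM (median 1293) in HNKO PH. The groups overlapped. The PH minus L difference was -0.28 ± 0.16 in WT (adjusted p = 0.099) and -0.32 ± 0.15 in HNKO (adjusted p = 0.0535), yet all 5 WT and all 6 HNKO mice were lower in PH than in their own liver. With the mouse as a block both were called (-0.29, adjusted p = 0.0278, and -0.30, adjusted p = 0.0141), as was PH against CS in WT (-0.30, adjusted p = 0.0162). Against CS, HNKO PH fell by 0.71 ± 0.15 (adjusted p = 8.67e-05), and CS against L in HNKO was 0.39 ± 0.15 (adjusted p = 0.139; with the block 0.40, adjusted p = 0.0219). Of the 51-base windows of Ftl1, 90.4% occur in the processed copy Ftl1-ps1, which held 39 to 152 counts per library, so its counts are uncertain to that extent.

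Slc40a1 encodes ferroportin, the iron exporter, which Kupffer cells also express. It was at 259.9, 248, 214, 194 and 200.02 CPM in the WT livers, 164 to 255 CPM (median 202) in HNKO livers, 189 to 276 CPM (median 234) in WT CS and 163 to 324 CPM (median 203) in HNKO CS. In WT PH it was at 37.1 (mouse 544), 68.4 (548), 112 (554), 65.0 (556), 102 (558) and 84.6 CPM (564). In HNKO PH it was at 52.3 (540), 29.6 (542), 56.2 (546), 29.2 (552), 62.1 (562) and 40.7 CPM (566). All PH libraries lay below all L libraries, and 5 of the 6 WT cultures lay above all 6 HNKO cultures, with mouse 544 as the exception.

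From L to PH, Slc40a1 fell by 1.52 ± 0.21 in WT (2.86-fold, adjusted p = 7.38e-08) and by 2.19 ± 0.21 in HNKO (4.58-fold, adjusted p = 2.3e-11). Of 10 Kupffer cell markers, 8 were called lower in WT PH and 9 in HNKO PH, with a list median of -4.56 and -4.58. Cd68, a lysosomal protein of macrophages, went the other way, from 11.4 to 13.5 CPM in WT liver to 161 to 514 CPM in WT PH and from 13.0 to 19.7 CPM to 39.9 to 352 CPM in HNKO. On group means it made up most of the summed marker level in PH (180.0 to 519 CPM in WT, 63.0 to 365 in HNKO), whereas in the livers the sums were 492 to 635 CPM (WT) and 469 to 670.1 CPM (HNKO). Over the 35 libraries, log2 CPM of Slc40a1 had r of 0.554 to 0.886 with the other 9 markers and -0.74 with Cd68, whereas on deviations from group means these were -0.432 to -0.0375 and 0.75, as a description of libraries that share sample type. None of these markers was at 0 throughout PH. Their part in the fall of Slc40a1 was not tested.

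Hpx encodes haemopexin, which binds free haem in plasma. It was at 3861, 4897, 4876, 5116 and 4172 CPM in the WT livers, 3539.7 to 6764 CPM (median 5014) in HNKO livers, 9969 to 16327 CPM (median 12171) in WT PH and 7217 to 12797 CPM (median 10181) in HNKO PH. PH lay above L without overlap in both genotypes, by 1.47 ± 0.17 in WT (2.76-fold, adjusted p = 1.58e-09) and 1.00 ± 0.15 in HNKO (adjusted p = 6.88e-07).

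Cp encodes ceruloplasmin, the plasma copper protein and ferroxidase. It was at 1892, 1639.8, 1904, 1733 and 1676 CPM in the WT livers, 1905 to 4221 CPM (median 1966) in HNKO livers, 4747 to 7648 CPM (median 6100.4) in WT PH and 4685 to 7661 CPM (median 6157) in HNKO PH. From L to PH it rose by 1.78 ± 0.17 in WT (3.44-fold, adjusted p = 3.26e-11) and 1.36 ± 0.16 in HNKO (2.57-fold, adjusted p = 2.47e-09), without overlap. All 6 HNKO livers lay above all 5 WT livers, narrowly except for mouse 552 at 4221 CPM, and the difference missed the threshold (0.43 ± 0.16, adjusted p = 0.16; exact permutation test, unadjusted p = 0.0368).

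**Figure D3:**
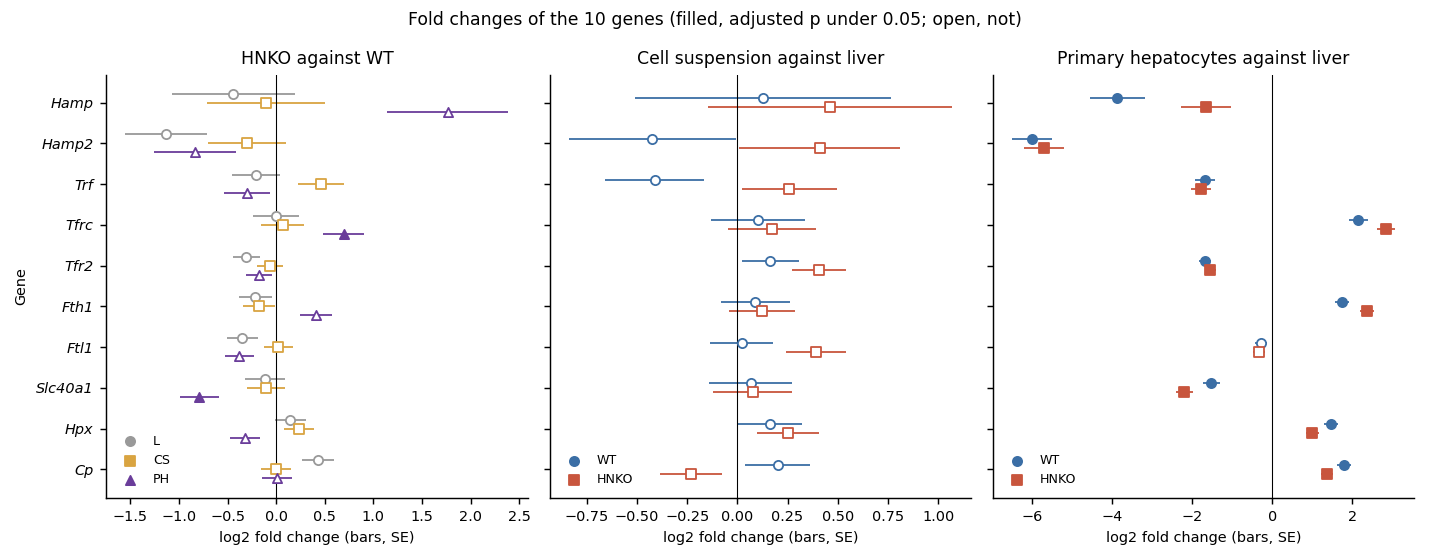
Log2 fold changes (x axes, which differ in range; bars, SE) of the 10 genes for HNKO against WT in each sample type (left), cell suspension against liver (middle) and primary hepatocytes against liver (right); filled symbols passed an adjusted p of 0.05. Filled symbols are found for Tfrc (0.70) and Slc40a1 (-0.79) in the left panel, nowhere in the middle panel, and for every gene but Ftl1 in the right panel.

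Between genotypes, 2 of the 10 genes were called in PH and 0 in L and in CS. Tfrc was 1.62-fold higher in HNKO PH, at 130.5 ± 29.2 CPM against 80.5 ± 28.0 CPM in WT (mean ± SD, n = 6 each; 0.70 ± 0.21, adjusted p = 0.0277; exact permutation test, p = 0.0173), with 6 of 6 HNKO cultures above the WT median and 4 above every WT culture. Slc40a1 was 1.73-fold lower, at 45.0 ± 14.0 CPM against 78.0 ± 27.0 CPM (-0.79 ± 0.20, adjusted p = 0.0091; exact permutation test, p = 0.0325), with 6 of 6 below the WT median. The count of 1 higher and 1 lower stands beside 12.8% of all genes called in PH (5.14% higher, 7.67% lower). The median difference of the 10 genes was -0.24, against 0.005 over all genes, and 6 of the 10 had an unadjusted p under 0.05. The share of all genes under that unadjusted threshold is not given here, so this count is not read as an excess.

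Both calls were sensitive to leaving out single mice, which removes all libraries of a mouse from the fit. That of Tfrc was lost without any 1 of mice 540, 542, 548, 552, 554, 558, 564 and 566 (0.58 to 0.68, adjusted p = 0.0536 to 0.0821), and that of Slc40a1 only without mouse 554 (-0.66, adjusted p = 0.0527). Neither gene was called when the 12 PH libraries were fitted alone (adjusted p = 0.0712 and 0.0884) or when all 36 libraries were fitted (adjusted p = 0.0769 and 0.0809), and DESeq2 called both, with Hamp and Ftl1. Without mouse 544 they were 0.89 and -0.94, and Fth1 (0.57, adjusted p = 0.00889) and Ftl1 (-0.44, adjusted p = 0.0386) were called besides Hamp. The share of all genes called in that fit is not given here, so these calls are not read as particular to the 10 genes. With all mice, Fth1 differed by 0.41 ± 0.16 (adjusted p = 0.0926), with 6 of 6 HNKO cultures above the WT median, and Ftl1 by -0.38 ± 0.15 (adjusted p = 0.0857), with 6 of 6 below it. Trf (-0.30), Tfr2 (-0.18), Hpx (-0.32) and Cp (0.01) did not pass, with adjusted p of 0.425, 0.415, 0.169 and 0.981. Of the hepatocyte markers 7 of 10 were called lower in HNKO PH, and none of the Kupffer cell markers was called (0 at an unadjusted p under 0.05 in edgeR). The 8 cholangiocyte markers summed to 73.3 to 452 CPM in HNKO PH, above 5 of the 6 WT cultures (25.9 to 48.8 CPM, with mouse 544 at 219), with 1 of the 7 tested called higher. The 10 stellate cell markers had median sums of 262 CPM in HNKO PH and 161 CPM in WT PH, with 1 called higher and 1 lower. The part of these marker shifts in the values for Hamp, Tfrc and Slc40a1 was not tested.

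In liver edgeR called 0 of the 10 genes between genotypes, with 4 at an unadjusted p under 0.05 (Hamp2, Tfr2, Ftl1 and Cp) and 0 called by DESeq2, where 1.51% of all genes were called. That share is for adjusted p, so the unadjusted count is not read as an excess. Tfr2 differed by -0.31 ± 0.14 (adjusted p = 0.253) and Ftl1 by -0.35 ± 0.16 (adjusted p = 0.241), the HNKO livers of Tfr2 lying below the WT median in 6 of 6. In CS edgeR called 0 of 10 with 0 at an unadjusted p under 0.05 and 0 by DESeq2, where 0.0268% of all genes were called. The 10 genes' median differences were -0.21 in L and -0.03 in CS, with all-gene medians of -0.001 and 0.01.

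Cell suspension against liver gave 0 calls among the 10 genes in WT (0 at an unadjusted p under 0.05 in edgeR, 0 by DESeq2) and 0 in HNKO (2 at an unadjusted p under 0.05, 1 by DESeq2, Tfr2, and 2 with the mouse as a block, Tfr2 and Ftl1), where 3.5% and 5.37% of all genes were called. Both shares are for adjusted p. Hamp was higher in CS than in the liver of the same mouse in 4 of 5 WT and 6 of 6 HNKO mice (0.13 ± 0.64 and 0.46 ± 0.61). Hamp2 was lower in CS in 5 of 5 WT mice, by a median of 1.28-fold (-0.42 ± 0.42, adjusted p = 0.692).

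Differences in the genotype effect between sample types were tested as interaction terms. For CS minus L, 0 of 10 genes were called (0 at an unadjusted p under 0.05 in edgeR, 0 by DESeq2, 0% of all genes). For PH minus L the count was 0, with 5 at an unadjusted p under 0.05 and 0 by DESeq2, where 1.58% of all genes were called, and for PH minus CS it was 0, with 6 and 0, where 0.221% were called. These shares are for adjusted p, so the unadjusted counts are not read as an excess. In PH minus L the values were 0.70 ± 0.31 for Tfrc (adjusted p = 0.228), -0.68 ± 0.29 for Slc40a1 (adjusted p = 0.202) and 0.62 ± 0.24 for Fth1 (adjusted p = 0.147). Thus the called effects in PH were not shown to differ from those in liver.

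**Figure D4:**
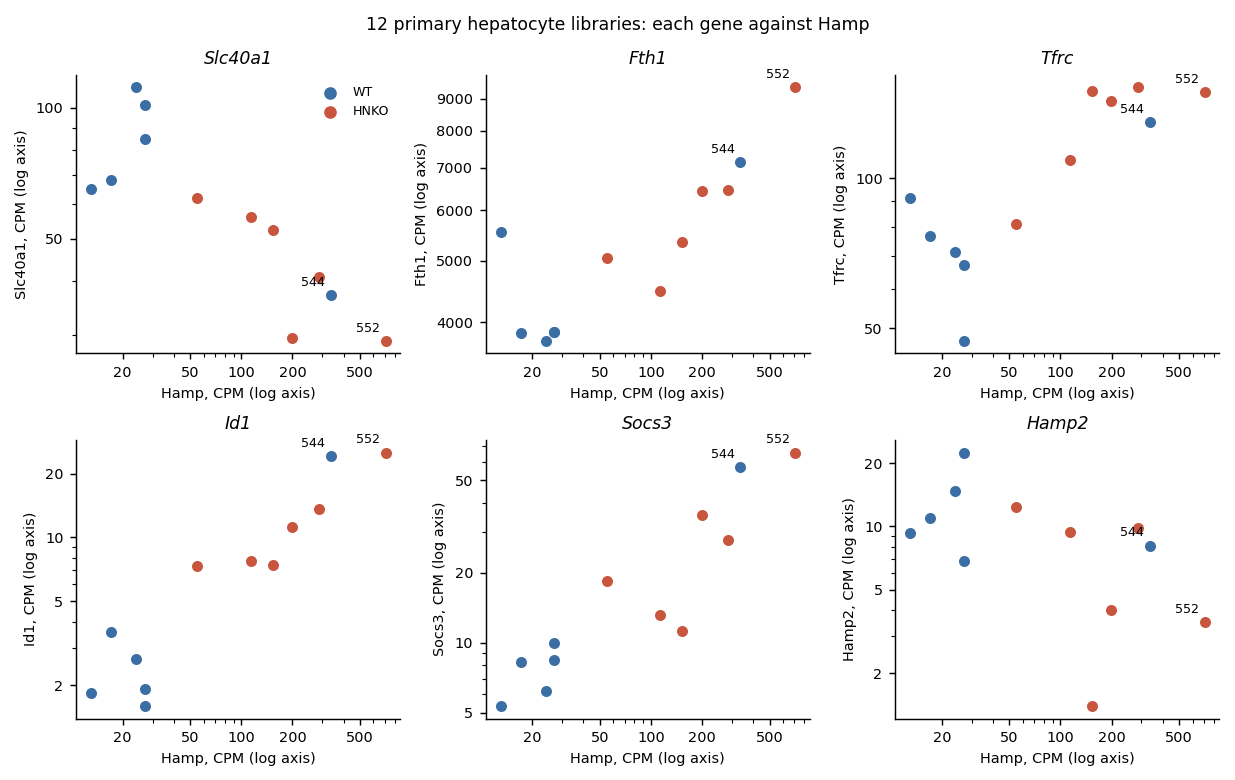
CPM of Slc40a1, Fth1, Tfrc, Id1, Socs3 and Hamp2 (y axes) against Hamp (x axes) in the 12 primary hepatocyte libraries (log axes that do not start at 0; blue, WT; red, HNKO; mice 544 and 552 labelled). Within HNKO, cultures with more Hamp had more Fth1 (r = 0.897) and less Slc40a1 (r = -0.835), and WT mouse 544 lies near the HNKO points in the Slc40a1, Fth1 and Tfrc panels.

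Relations between log2 CPM of Hamp and of the other 9 genes were computed within each genotype (n = 6 cultures, 18 relations, exact permutation tests over 720 orders, two-sided). In HNKO PH, Hamp and Trf had r = -0.924 (exact p = 0.00278, Benjamini-Hochberg p = 0.05) and rho = -0.943 (exact p = 0.0167, Benjamini-Hochberg p = 0.1), and r was -0.937 without mice 552 and 562. Fth1 had r = 0.897 (exact p = 0.0208, Benjamini-Hochberg p = 0.158), and Slc40a1 r = -0.835 (exact p = 0.0264, Benjamini-Hochberg p = 0.158), with r of 0.928 and -0.637 without the same mice. Their rho values were 0.943 and -0.943, with the p-values given for Trf. In WT PH, Slc40a1 had r = -0.711 (exact p = 0.158, Benjamini-Hochberg p = 0.34) and Fth1 r = 0.7 (exact p = 0.143, Benjamini-Hochberg p = 0.34), with rho of -0.0286 (exact p = 1.0, Benjamini-Hochberg p = 1.0) and 0.371 (exact p = 0.497, Benjamini-Hochberg p = 0.746). Without mice 544 and 556 these r values were 0.716 and 0.0724, and without mouse 544 alone 0.828 and -0.809. The WT relations therefore rest on that mouse, and no relation fell below 0.05 after adjustment.

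Over the 35 libraries the genes whose log2 CPM followed that of Hamp most closely, among 11711 ranked, were Plpp3 (r = 0.94), Nucb1 (0.927), Smad6 (0.922), Fchsd2 (0.917) and Mboat7 (0.917). For Slc40a1 they were F10 (0.97), Pzp (0.969), Masp1 (0.968), Adra1b (0.968) and Ugt2b36 (0.967). On deviations from the group means, r was 0.589 (Mboat7) to 0.756 (Plpp3) for the genes like Hamp and 0.676 (Ugt2b36) to 0.788 (Masp1) for those like Slc40a1. These are descriptions over libraries that share sample type and, in threes, the mouse.

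Other genes of the pathway were taken from lists of known members. Of 7 BMP target genes besides Hamp, all 7 were called lower in WT PH than in WT liver (38.2% of all genes), among them Id2 (-2.22 ± 0.18), Smad6 (-3.63 ± 0.36) and Id1 (-1.57 ± 0.52, adjusted p = 0.00717). In HNKO 5 of 7 were called lower (38.5% of all genes), whereas Id1 (-0.29 ± 0.49, adjusted p = 0.589) and Id3 (0.05 ± 0.33, adjusted p = 0.896) were not. The list's median was -1.96 in WT and -2.33 in HNKO. Of 15 tested genes upstream of hepcidin, 5 were called higher and 6 lower in WT PH, and 5 and 7 in HNKO PH, and these 11 and 12 of 15 lie near the 75.7% and 76.2% of all genes called. Hfe2, the BMP co-receptor hemojuvelin, fell by 3.44 ± 0.29 in WT (127 to 11.7 CPM) and by 3.83 ± 0.29 in HNKO. Erfe, which encodes the BMP-binding hormone erythroferrone, was at 0 to 0.0628 CPM in WT liver and at 2.43 to 15.2 CPM in WT PH (adjusted p = 6.24e-11).

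Of 7 interleukin-6 receptor, kinase and Stat3 genes, 5 were called higher and 0 lower in PH in each genotype, including Stat3 (0.75 ± 0.10 in WT), beside 37.5% and 37.7% of all genes called higher. Of 13 further acute-phase proteins, 8 rose and 4 fell in WT PH and 8 rose and 5 fell in HNKO PH (12 and 13 called, beside 75.7% and 76.2% of all genes), Orm3 rising by 3.47 ± 0.36 and Fga falling by 2.13 ± 0.15 in WT. The genes of this list thus moved in both directions, and Hpx and Cp, described above, both rose. Of 22 other iron and haem transport genes, 11 rose and 6 fell in WT PH and 10 rose and 7 fell in HNKO PH, so that 17 of 22 in each genotype were called, near the share of all genes. Slc48a1, a haem transporter, rose by 2.08 ± 0.10 and Slc11a2, an iron importer, by 2.35 ± 0.17 in WT, and Slc46a1, a folate and haem carrier, fell by 1.96 ± 0.10.

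The genes for the iron regulatory proteins, which bind the elements printed above, were both lower in PH. Ireb2 fell by 0.83 ± 0.14 and Aco1 by 0.40 ± 0.10 in WT (adjusted p = 2.93e-06 and 0.000297), and Fbxl5, which targets Ireb2 protein for degradation, rose by 0.37 ± 0.14 (adjusted p = 0.0148), and the 3 were called in the same directions in HNKO. These are messenger RNA levels, and the activity of the proteins was not measured. Of 12 genes of haem synthesis and breakdown, 8 fell and 1 rose in WT PH and 7 fell and 1 rose in HNKO PH, beside 38.2% and 38.5% of all genes called lower. Alad fell by 3.10 ± 0.16 and Cpox by 2.69 ± 0.21 in WT, and the gene that rose was Hmox1, haem oxygenase (25.8 to 267 CPM; 3.37 ± 0.30).

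Between genotypes in PH, the calls in these lists were 1 higher and 5 lower of 15 upstream genes, 1 lower of 7 BMP targets (Atoh8, -1.10 ± 0.32), 1 lower of 7 interleukin-6 genes (Il6ra, -0.74 ± 0.22), 1 higher and 3 lower of 22 transport genes, 0 of 3 genes of the iron regulatory proteins (1 at an unadjusted p under 0.05), 1 lower of 12 haem genes and 2 lower of 13 acute-phase proteins. These stand beside 12.8% of all genes called (5.14% higher, 7.67% lower), and lists with 1 or 2 calls lie near that share. Hmox1 was lower in HNKO PH (103 against 267 CPM; -1.37 ± 0.26, adjusted p = 0.00117), as was Tmprss6, a protease that cuts hemojuvelin and restrains hepcidin (-0.74 ± 0.20, adjusted p = 0.014). Steap3, the reductase that acts on iron released from transferrin in endosomes, was higher (0.89 ± 0.17, adjusted p = 0.00131), and Ncoa4, the receptor for ferritin breakdown, was lower (-0.61 ± 0.14, adjusted p = 0.00468). Id1 differed by 0.99 ± 0.50 (adjusted p = 0.189) and Smad7 by 0.61 ± 0.23 (adjusted p = 0.0691). Id1 was at 7.34 to 25.3 CPM in HNKO PH and at 1.59 to 3.56 CPM in WT PH, except for mouse 544 (24.3 CPM). Socs3, which was not called, was at 11.2 to 65.9 CPM in HNKO PH and at 5.35 to 9.98 CPM in WT PH, again except for mouse 544 (57.3 CPM). In liver the calls were Slc46a1 (-0.38, adjusted p = 0.0378) and Orm2 (1.98, adjusted p = 0.0428).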

How the data were processed

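RNA was extracted from livers and cell pellets, depleted of ribosomal RNA and made into stranded total RNA libraries read as 51-base pairs. The authors aligned reads to GRCm38 with STAR (2.7.2b in the submitters' processing notes, although the study's text gives an earlier version) and deposited gene counts from featureCounts 1.6.4 over GENCODE annotation, raw and not normalized. How the counting treated strand is not given in the sources used here, so genes that overlap on opposite strands (355 bases of Ftl1, 108 of Cp and 89 of Hamp2) are uncertain to that extent.

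Counts were filtered by filterByExpr (minimum count 10), scaled by TMM and tested across all genes with edgeR 4.0.16 in R 4.3.3 (quasi-likelihood, earlier form, 1 coefficient per group, 35 libraries). The WT liver of mouse 558 held 2547422 counts and had a mean rank correlation of 0.7768 with other livers, against 0.9406 to 0.9829 for the libraries used within their sample type. Log2 CPM used a prior count of 2. Replicates are separate mice. All tests are two-sided. Exact permutation tests compared the genotypes for each of the 10 genes in each sample type, without adjustment for their number. The genotype results above print only a selection of them, all under 0.05. Among the rest, p was 0.197 for Hamp and 0.0498 for Tfr2 in L, and 0.0303 for Trf and 0.0433 for Hpx in CS. In PH it was 0.0346 for Ftl1, 0.0844 for Hamp2 and 0.0887 for Fth1. A mouse's number, given in the sample labels, ties its L, CS and PH libraries together, and deviations from group means correlated within mice (median r of 0.324 for CS and L, 0.156 for CS and PH, 0.101 for L and PH) more than between mice (-0.02, -0.0009 and -0.02), so a fit with the mouse as a block was an alternative. Other alternatives were RLE scaling, no filter, the edgeR 4 form of the test, all 36 libraries, only the groups compared, DESeq2 1.42.0 and leaving out each mouse.

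The 10 genes and all other gene lists were chosen with earlier results of these data known, and no list is independent support. All 10 genes are named, as are Nampt and Alb, up to 4 genes per list and comparison with the smallest p, BMP targets and iron regulatory protein genes, and the 5 genes most like Hamp and like Slc40a1. Id1, Socs3, Jak2, Il6ra and the other BMP targets in mice 544 and 552 were named after their values were seen. So were the ranges of Id1 and Socs3 by genotype in PH, and Hmox1 in WT PH against liver. Sequences, exon lengths and overlaps came from GENCODE M21 and RefSeq on GRCm38, one release before the version the study's text names. Which release the counts of this experiment used was not checked. The promoter table held entries for 8 of the 10 genes.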

Additional observations from a re-analysis of the deposited data

Results flagged for a closer look

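In 6 results a library lay far from the others of its group, its gap to the nearest exceeding Dixon's 95% critical value. Of 60 groups tested, 6 did so, and chance gives about 1 in 20.

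Hamp in HNKO PH was 706.6 CPM in mouse 552, against 54.9 to 285 CPM in the other 5 mice. Hamp in WT PH was 335.9 CPM in mouse 544, against 13.0 to 27.0 CPM in the others. Trf in WT CS was 1375 CPM in mouse 558, against 956 to 1072 CPM. Ftl1 in WT CS was 2744 CPM in mouse 548, against 1821 to 2122 CPM. Slc40a1 in HNKO CS was 323.7 CPM in mouse 552, against 163 to 214 CPM, and the Kupffer cell markers of that library summed to 1595 CPM, against 363 to 531 CPM. Its sums of sinusoidal endothelial (1375 against 578 to 1134 CPM), stellate (1121 against 267 to 701 CPM) and cholangiocyte markers (171 against 24.0 to 152 CPM) were also the highest of HNKO CS. Cp in HNKO liver was 4221 CPM in mouse 552, against 1905 to 2325 CPM, and its cholangiocyte markers summed to 1394 CPM, against 74.2 to 359 CPM. Mouse 552 thus stood apart in all 3 sample types, each time in another gene, and the part of these markers was not tested. In each sample type its library also had the lowest mean rank correlation of those used.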

How the results depend on the processing

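For the 10 genes in 12 comparisons, 19 alternative settings gave 2136 fold changes with the same direction and side of the threshold, 35 that became called, 15 that lost their call and 64 that changed sign, of which 0 were called in either fit. No scaling moved the median of all genes by over 0.1 on the log2 scale. For these changes the cause was not tested. Depth limits the lowest values most, since Hamp2 in HNKO PH rested on 28 to 214 counts per library and Tfrc in WT liver on 182 to 291.

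Of the number of the 10 genes called, the genotype comparison in PH gave 0 with all 36 libraries, 0 with only the groups compared, 4 by DESeq2 (with Hamp at 1.78, adjusted p = 0.0311, and Ftl1 at -0.39, adjusted p = 0.0478), and 0 to 5 when each mouse was left out (0 without mouse 554, 5 without mouse 544). With all 36 libraries, the genotype comparison in liver gave 2 (Hamp2 at -1.38, adjusted p = 0.0489, and Trf at -1.59, adjusted p = 0.0361) and CS against L in WT gave 1 (Trf at -1.81, adjusted p = 0.0154). CS against L in HNKO gave 1 by DESeq2 (Tfr2 at 0.40, adjusted p = 0.0454). With the mouse as a replicate block it gave 2, Tfr2 at 0.43 (adjusted p = 0.00642) and Ftl1 at 0.40 (adjusted p = 0.0219). The block also called Ftl1 in PH against L in WT (-0.29, adjusted p = 0.0278) and HNKO (-0.30, adjusted p = 0.0141) and in PH against CS in WT (-0.30, adjusted p = 0.0162), and changed no other call. The differences of the genotype effect between PH and L and between PH and CS gave 0 to 3 when each mouse was left out, with 3 only without mouse 544. The share of all genes called under each alternative is not given here. A change in these counts is therefore not read as particular to the 10 genes.

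The log2 fold changes that changed sign were near 0 or came from the WT liver of low depth. The genotype effect on Tfrc in liver was 0.010 under RLE scaling, 0.015 with no filter, 0.14 with all 36 libraries, 0.010 with only the groups compared, 0.0093 by DESeq2 and -0.078 to 0.14 without single mice. In liver with all 36 libraries it was 0.10 for Slc40a1 and -0.11 for Hpx. In CS it was 0.034 with no filter, 0.0075 with all 36 libraries, 0.0048 with only the groups compared and -0.049 to 0.042 without single mice for Cp, and without single mice it was -0.33 to 0.039 for Hamp, -0.11 to 0.18 for Tfrc and -0.031 to 0.12 for Ftl1. In PH it was -0.065 to 0.085 for Cp without single mice. CS against L in WT was -0.40 for Fth1, -0.12 for Ftl1 and -0.12 for Hpx with all 36 libraries, and -0.0061 to 0.041 for Ftl1 without single mice, and in HNKO it was -0.060 to 0.15 for Slc40a1. The difference of the genotype effect between CS and L was -0.0048 under RLE scaling, -0.19 with all 36 libraries, -0.011 with only the groups compared, -0.0049 by DESeq2 and -0.11 to 0.086 without single mice for Slc40a1. For Tfrc it was -0.065 with all 36 libraries, -0.070 with the replicate block and -0.035 to 0.16 without single mice, and for Fth1 -0.031 to 0.083. The difference between PH and L was 1.29 for Trf and 0.091 for Ftl1 with all 36 libraries, and -0.26 to 0.094 and -0.20 to 0.028 without single mice. The difference between PH and CS was -0.029 with no filter and -0.092 to 0.080 without single mice for Cp.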
